A study of Mus musculus with 4 samples.

Results

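The mitochondrial ribosomal proteins were examined as the probe sets whose platform annotation names 1 gene with a symbol that starts with Mrpl or Mrps followed by a digit. There were 127 such probe sets of 22626 in the value table, and they stood for 74 genes of 12393, 47 named Mrpl and 27 named Mrps. Mrpl30, Mrpl53, Mrps10 and Mrps27 had no probe set under the rule and are not analysed here. The RNA came from 3T3-F442A, an established mouse line of preadipocytes that can be turned into adipocytes in the dish. The preadipocytes were infected with a retrovirus that expressed a hairpin against GFP (the control, shGFP) or against the calcium channel gene Trpv4 (shTRPV4), and all cells were kept under puromycin for 2 days. Both groups were then given insulin (850 nM) over 8 days to become adipocytes, and rosiglitazone on the first 2 of them. There were 2 arrays per group, and the labels do not say whether the replicates were separate infections or cultures, so the spread behind each p-value is that of these arrays and could be technical. The Trpv4 probe set (1417545_at) read 43.7 and 93.8 on the shGFP arrays and 80.1 and 79.5 on the shTRPV4 arrays, which gives 0.32 on the log2 scale (95% interval −0.55 to 1.19), so the knockdown was not measurable here and the groups are called by their labels.

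The mitochondrial ribosome sits in the matrix at the inner membrane and translates the few proteins that mitochondrial DNA encodes, all of them subunits of the respiratory chain and ATP synthase. Its RNAs come from mitochondrial DNA, but all of its proteins are encoded in the nucleus, made in the cytosol and imported. Some descend from proteins of the bacterial ribosome, and others have no bacterial counterpart. Fat cells build up mitochondria as they differentiate, and the genes for this ribosome are often counted among those of mitochondrial biogenesis.

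Most mitoribosomal transcripts read slightly higher in the arrays labelled shTRPV4, and few differed enough to pass the test. On the brightest probe set of each gene, 62 of 74 genes had a positive log2 difference and 12 a negative one, with a median of 0.19 and a range from −0.53 (Mrpl10) to 0.60 (Mrps31). Over all genes the median was 0.02, and 53.5% of them had a positive difference, against 83.8% of the mitoribosomal genes. Differences were taken between quantile-normalized log2(intensity + 16) values, as shTRPV4 minus shGFP, and their size for dim probe sets is understated by the offset of 16. The median depended on the scaling, at 0.16 with the values as deposited and 0.25 with median centring, but so did that of all genes (−0.01 and 0.09). The gap between the median of the mitoribosomal genes and that of all genes was 0.17, 0.16 and 0.16 in the 3 scalings. In total 69 genes kept 1 sign in all 3 scalings, and the exceptions were Mrpl28, Mrpl32, Mrpl33, Mrpl36 and Mrps36, whose differences lay between −0.07 (Mrpl36, as deposited) and 0.08 (Mrpl28, median centring). These are bulk samples, in which fewer cells of a type and less RNA per cell cannot be told apart.

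Past the threshold, a Benjamini-Hochberg adjusted p under 0.05 with limma over all probe sets, 5 mitoribosomal probe sets rose and 1 fell, each the brightest of its gene. Those are 3.94% and 0.787% of the 127, where 4.54% of all probe sets rose and 5.36% fell. By gene, 6.76% rose and 1.35% fell, against 5.33% and 6.0% of all genes. The 74 genes all lay at or above the median level of the array, and among genes of that level 7.98% rose and 8.45% fell. In this fit the share of mitoribosomal genes that rose was near the background and the share that fell below it, but the first depended on the fit. With median centring 18.9% of the mitoribosomal genes and 8.36% of all genes rose, and with an intensity trend in limma 39.2% and 11.4% did, while with the values as deposited it was 2.7% and 3.07%. These shares of all genes are not matched for level. In a fit restricted to probe sets at or above the median level, 47.3% of the mitoribosomal genes and 25.1% of all its genes rose. In the fit that gave the 5 risen and 1 fallen probe sets, an unadjusted p under 0.05 was common. It was met by 4102 of 12393 genes, 3039 of the 6817 at or above the median level and 39 of the 74. Such counts below, where they come from this fit, are to be read against these. The 21 mitoribosomal probe sets under the median level gave 0 calls with limma, 4 of them with an unadjusted p under 0.05. Of all 22626 probe sets 6928 had such a p, but those under the median level were not counted apart, so the 21 have no matched background. With the values as deposited 2 mitoribosomal genes rose, and with median centring 14 did, with 1 fallen in each, where over all genes 380 rose and 718 fell as deposited, 1036 rose and 709 fell with centring, and 661 rose and 744 fell here. With an offset of 1 in place of 16, 0 of the 74 genes passed (32 at an unadjusted p under 0.05), where 0.936% of all genes rose and 2.19% fell. The unadjusted count over all genes was not taken at that offset, so the 32 has no background. With 64, 22 rose and 3 fell (29.7% and 4.05%), against 10.9% and 9.86% of all genes. With any 1 array left out, 1 group held a single array, and only the size of the differences is given. The median of the 74 genes then ran from 0.18 to 0.20.

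The groups separated more often than the calls show. For 56 of 74 genes both shTRPV4 arrays lay above both shGFP arrays after normalization (75.7%), for 9 both lay below (12.2%), and for 9 the groups overlapped. Of all genes, 33.2% were separated upward and 27.7% downward, and of genes at or above the median level 42.6% and 33.4%. The deposited intensities of the 74 genes summed to 95154 and 100482 on the shGFP arrays and 106315 and 110142 on the shTRPV4 arrays. Over all genes the sums were 9342543 and 9712989.6 against 9401813 and 9729916, so the mitoribosomal sums separated the groups and those of all genes did not. The median normalized log2 level of the 74 genes was 10.20 and 10.25 in shGFP and 10.41 and 10.34 in shTRPV4.

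**Figure D1:**
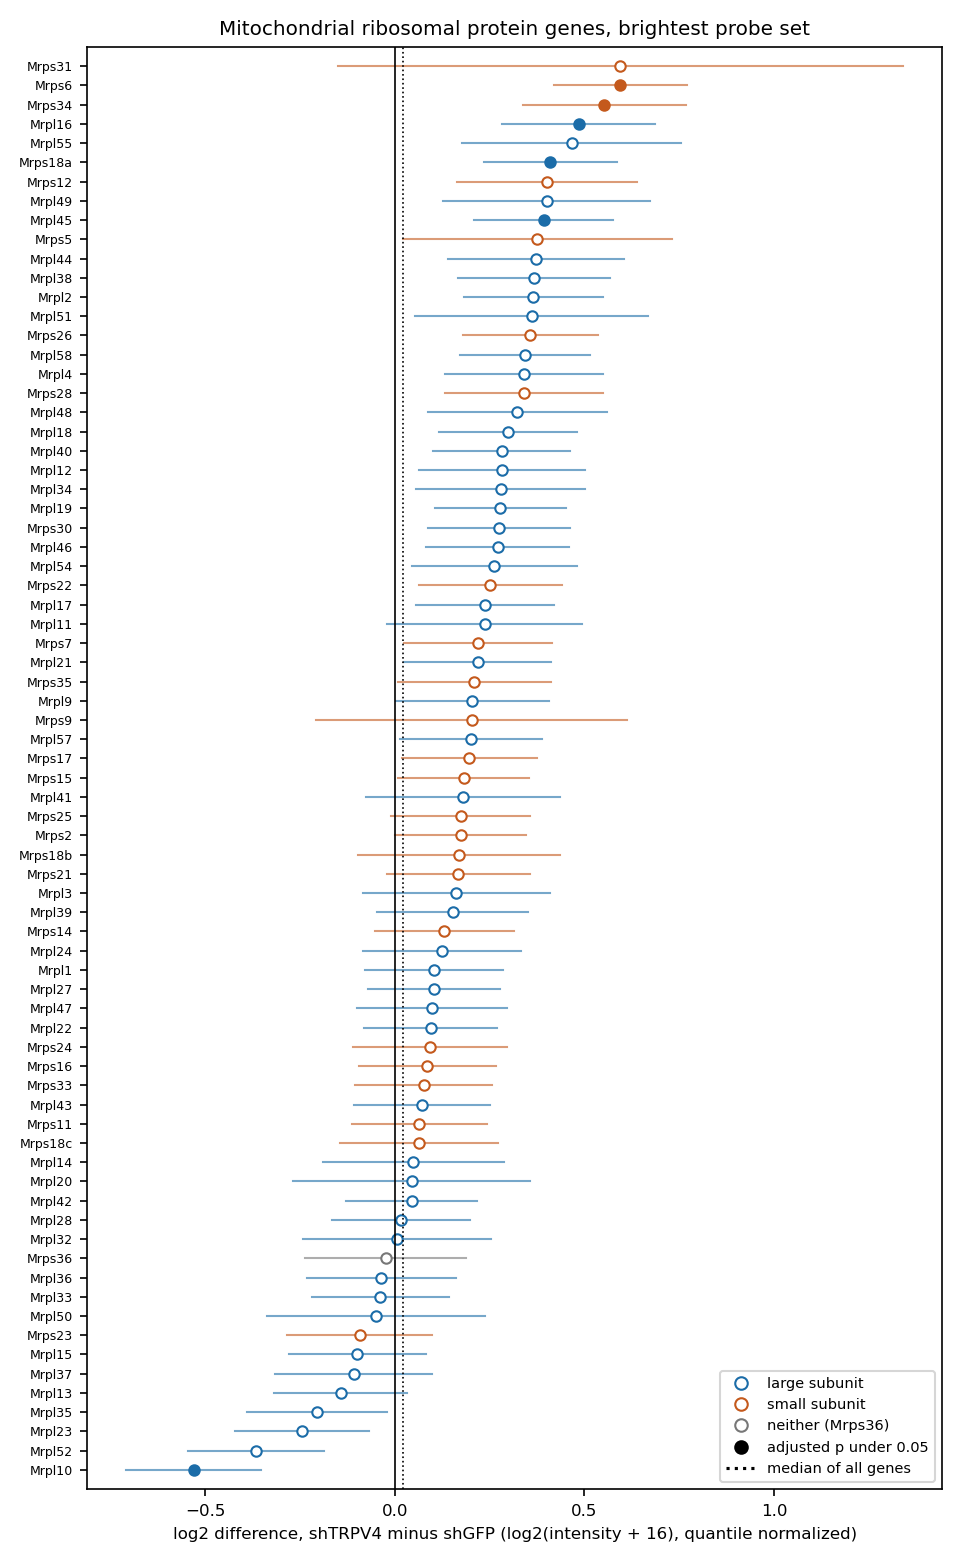
Log2 difference (shTRPV4 minus shGFP, horizontal axis, on the log2(intensity + 16) scale) of the 74 mitochondrial ribosomal protein genes, 1 row each, with its 95% interval from limma. Colours give the subunit in which structures place the protein, filled points passed the threshold, and the dotted line is the median of all genes at 0.02; 62 points lie to the right of 0 and 12 to the left, and 5 genes near 0 change sign with the scaling.

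The 5 genes that rose encode proteins of both subunits. In the small subunit, Mrps6, the counterpart of a bacterial platform protein, read 3309.5 and 3344 on the shGFP arrays and 4949.8 and 5181 on the shTRPV4 arrays (log2 difference 0.59, SE 0.06, limma adjusted p = 0.0245). Its fold was 1.51 on this scale. Mrps34, a small subunit protein with no bacterial counterpart, read 1381 and 1478 on the shGFP arrays and 1938 and 2184 on the shTRPV4 arrays (log2 difference 0.55, SE 0.08, limma adjusted p = 0.0363). In each case both shTRPV4 arrays stood well above both shGFP arrays.

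In the large subunit, Mrpl16, which lies at the tRNA binding sites near the peptidyl transferase centre, read 1003 and 1005 on the shGFP arrays and 1403 and 1365 on the shTRPV4 arrays (log2 difference 0.49, SE 0.07, limma adjusted p = 0.0395). Mrpl45, which lies at the end of the peptide exit tunnel and anchors the ribosome to the inner membrane, read 1698 and 1765 on the shGFP arrays and 2232 and 2212 on the shTRPV4 arrays (log2 difference 0.39, SE 0.06, limma adjusted p = 0.0476). Mrps18a is named for the small subunit, but structures place this S18 family protein in the large one. It read 1518 and 1533 on the shGFP arrays and 1937 and 2039 on the shTRPV4 arrays (log2 difference 0.41, SE 0.06, limma adjusted p = 0.0411). The groups did not overlap for any of the 3. The calls on Mrps34, Mrps18a and Mrpl45 were lost with the values as deposited, where limma's adjusted p was 0.06, 0.0658 and 0.0692.

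The gene that fell was Mrpl10, which forms the base of the stalk that carries the factor-binding protein MRPL12. It read 1272 and 1336 on the shGFP arrays and 848 and 909.9 on the shTRPV4 arrays, with both shTRPV4 arrays below both shGFP arrays (log2 difference −0.53, SE 0.06, limma adjusted p = 0.0295), a 1.44-fold lower level on this scale. The other proteins of the stalk did not pass and had positive differences. Mrpl12, which also binds the mitochondrial RNA polymerase, differed by 0.28 (SE 0.08, adjusted p = 0.106), and Mrpl11 by 0.24 (SE 0.09, adjusted p = 0.186).

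**Figure D2:**
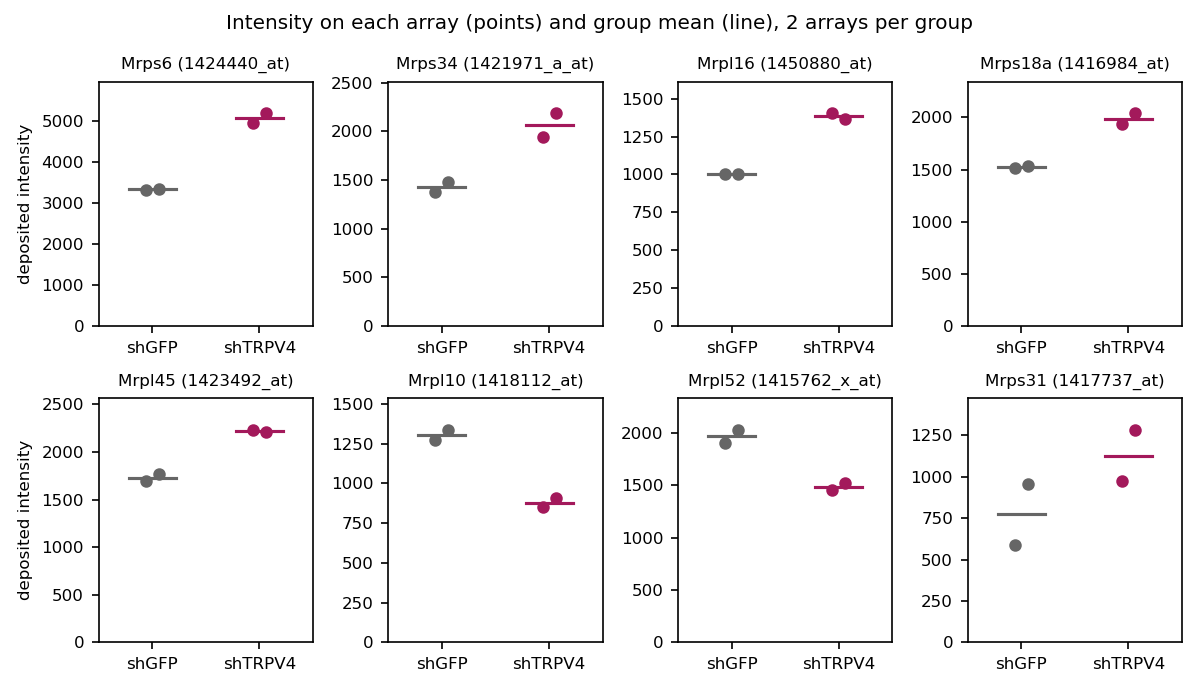
Deposited intensity (vertical axis, from 0) on each of the 4 arrays as points, with the group mean as a line, for the 6 mitoribosomal genes past the threshold and for Mrpl52 and Mrps31, which did not pass. The groups lie apart in all 8 panels, and Mrps31 shows the widest spread within the groups.

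The promoters of 5 of the 6 called genes are shown (Mrps34 has no window in the table used), because nuclear genes of the mitochondrial ribosome are known targets of the activators NRF1 and GABP, an ETS family factor, and of YY1. The windows come from a promoter table made from RefSeq (GRCm38.p6), in which 65 of the 74 genes were matched. Each line gives the 150 bases before the annotated start on the sense strand, here the plus strand throughout, with any match to 3 motif cores in capitals. They lie at chr16:92058186-92058335 (Mrps6), chr19:11770265-11770414 (Mrpl16), chr17:46110854-46111003 (Mrps18a), chr11:97315566-97315715 (Mrpl45), chr11:97041432-97041581 (Mrpl10) and chr6:125192050-125192199 (Mrpl51), the last a gene that did not pass, added as an example of an ETS match.
Mrps6: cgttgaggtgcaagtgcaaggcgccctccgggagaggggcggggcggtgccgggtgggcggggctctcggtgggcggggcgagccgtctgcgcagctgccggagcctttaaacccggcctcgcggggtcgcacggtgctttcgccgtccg
Mrpl16: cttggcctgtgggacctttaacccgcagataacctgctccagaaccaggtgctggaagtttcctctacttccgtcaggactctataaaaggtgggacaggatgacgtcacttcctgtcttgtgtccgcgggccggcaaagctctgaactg
Mrps18a: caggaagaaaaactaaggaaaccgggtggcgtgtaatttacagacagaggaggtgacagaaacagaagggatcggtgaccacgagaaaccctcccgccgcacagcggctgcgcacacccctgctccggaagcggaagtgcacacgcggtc
Mrpl45: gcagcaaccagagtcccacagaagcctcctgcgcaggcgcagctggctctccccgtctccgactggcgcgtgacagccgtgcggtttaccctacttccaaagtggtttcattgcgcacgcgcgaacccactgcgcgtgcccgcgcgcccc
Mrpl10: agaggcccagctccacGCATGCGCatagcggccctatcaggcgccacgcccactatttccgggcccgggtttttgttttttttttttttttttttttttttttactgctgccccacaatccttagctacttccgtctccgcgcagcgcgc
Mrpl51: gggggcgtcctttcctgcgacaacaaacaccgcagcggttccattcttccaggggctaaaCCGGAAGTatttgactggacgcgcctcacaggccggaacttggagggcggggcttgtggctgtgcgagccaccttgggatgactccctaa

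The cores searched were GCATGCGC for NRF1, CCGGAAGT for ETS factors and AAGATGGC for YY1, each on both strands of the 300 bases from 250 before to 50 after the start. The background is the 27025 genes of the promoter table, not the genes of the array. NRF1's core occurred in the windows of 8 of 65 genes (12.3%), against 3.05% of the promoter table. The ETS core was found in 11 of 65 genes (16.9%), against 4.31% of the promoter table, and the YY1 core in 11 of 65 genes (16.9%), against 3.19% of the promoter table. At least 1 of the 3 was present in 28 of 65 (43.1%), against 9.91% of the promoter table. In the windows shown, Mrpl10 has an NRF1 core that begins 134 bases before the start, and Mrpl51 an ETS core 90 bases before it. Mrps18a has a YY1 core that begins 12 bases after its start, outside the stretch shown. Mrps6, Mrpl16 and Mrpl45 hold none of the 3 in their windows. Genes with any core had a median log2 difference of 0.13 and those without one 0.20, a description without a test. The searches match letters only and say nothing of binding.

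By structure, 49 of the genes encode large subunit proteins, 24 small subunit proteins, and Mrps36 neither. Large subunit genes had a median of 0.20, with 39 positive, 3 risen and 1 fallen. Small subunit genes had a median of 0.19, with 23 of 24 positive, 2 risen and 0 fallen (limma, 11 at an unadjusted p under 0.05). The only small subunit gene with a negative difference was Mrps23 (−0.09, 95% interval −0.28 to 0.10, adjusted p = 0.436). The 9 genes whose shTRPV4 arrays both lay below the shGFP arrays were Mrps23 and 8 of the large subunit.

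By origin, the 45 genes whose proteins have a bacterial counterpart had a median of 0.17, and the 28 specific to mitochondria 0.27. In the large subunit these medians were 0.10 over 29 genes and 0.27 over 20, and in the small subunit 0.18 over 16 and 0.23 over 8. The middle 50% of the genes overlapped in both subunits, from 0.01 to 0.28 and from 0.13 to 0.36 in the large one. No test was made of the difference between the classes.

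Around the functional centres of the large subunit most differences were positive and small. On the peptidyl transferase side, Mrpl2 (0.37, SE 0.06, adjusted p = 0.0524) and Mrpl3 (0.16, SE 0.09, adjusted p = 0.305) did not pass with limma, nor did Mrpl27, which reaches to that centre (0.10, SE 0.06, adjusted p = 0.349). Mrpl3 differed by 0.39 on 1422463_a_at (limma adjusted p = 0.0764) and by 0.16 on the dim 1431006_at. Of 7 genes for proteins in or at the exit tunnel, 6 had positive differences, among them Mrpl4 (0.34), Mrpl22 (0.09), Mrpl24 (0.13) and Mrpl45. The seventh, Mrpl23 at the mouth of the tunnel, read 1096 and 1151 on the shGFP arrays and 925 and 939 on the shTRPV4 arrays (log2 difference −0.24, SE 0.06, limma adjusted p = 0.0944). Both of its shTRPV4 arrays were below both shGFP arrays, but it did not pass. Mrpl58, a peptidyl-tRNA hydrolase that rescues stalled ribosomes, read 775 and 811 on the shGFP arrays and 968 and 1011 on the shTRPV4 arrays and missed the threshold narrowly (log2 difference 0.34, SE 0.06, limma adjusted p = 0.0524). Mrpl44, with a ribonuclease III-like fold, differed by 0.37 and by 0.40 and 0.39 on its other probe sets, with none past the threshold (lowest adjusted p = 0.0524).

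Among other large subunit genes with positive differences, Mrpl55 went from 174 and 155 to 218 and 224 (0.47, SE 0.10, adjusted p = 0.0743) and Mrpl49 from 689 and 831 to 935 and 1022 (0.40, SE 0.10, adjusted p = 0.0858), with limma, without passing. The second Mrpl49 probe set, 1423219_a_at, differed by only 0.09 (limma adjusted p = 0.520). Mrpl46 (0.27, SE 0.07, adjusted p = 0.0893) and Mrpl48 (0.32, SE 0.08, adjusted p = 0.0963) did not pass either. Mrps30, named for the small subunit but placed by structures in the large one, read 1652 and 1661 on the shGFP arrays and 1881 and 2038 on the shTRPV4 arrays (log2 difference 0.27, SE 0.07, limma adjusted p = 0.0849). Both of these shTRPV4 readings were the higher ones. Mrpl39 differed by 0.15 (95% interval −0.05 to 0.35), and Mrpl32, which the m-AAA protease matures before it joins the ribosome, by 0.01 (−0.24 to 0.25).

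Negative differences in the large subunit were led, after Mrpl10, by Mrpl52, a protein without a bacterial counterpart. Its brightest probe set read 1905 and 2032 on the shGFP arrays and 1452 and 1527 on the shTRPV4 arrays (log2 difference −0.37, SE 0.06, limma adjusted p = 0.0505), just outside the threshold. All 4 of its probe sets were lower in both shTRPV4 arrays, with differences from −0.39 to −0.23. Mrpl35 (−0.21, 95% interval −0.39 to −0.02, adjusted p = 0.138), Mrpl13 (−0.14, 95% interval −0.32 to 0.03, adjusted p = 0.229), Mrpl37 (−0.11, 95% interval −0.31 to 0.10, adjusted p = 0.402) and Mrpl15 (−0.10, 95% interval −0.28 to 0.08, adjusted p = 0.385) followed with limma and did not pass. The 3 Mrpl13 probe sets had differences from −0.14 to −0.03, all below 0.

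In the small subunit, Mrps12, at the decoding centre, read 606 and 699.9 on the shGFP arrays and 856 and 830.3 on the shTRPV4 arrays (log2 difference 0.40, SE 0.08, limma adjusted p = 0.0684). Mrps5, at the mRNA entry side, differed by 0.38 and 0.37 on its pair of probe sets (adjusted p = 0.148 and 0.122 with limma). Both shTRPV4 arrays were higher for each, without passing. Mrps31, which has no bacterial counterpart, had a large difference and did not pass. It read 589 and 956 on the shGFP arrays and 971 and 1282 on the shTRPV4 arrays (log2 difference 0.60, SE 0.26, limma adjusted p = 0.233, 95% interval −0.15 to 1.34). The arrays spread widely within both groups, and its lower shTRPV4 array was only just above its higher shGFP array. The difference was 0.28 without array 1 of shGFP and 0.91 without array 2 of shGFP.

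Mrps26, with no bacterial counterpart, read 869.6 and 900.5 on the shGFP arrays and 1106 and 1124 on the shTRPV4 arrays and lay just outside the threshold (log2 difference 0.36, SE 0.06, limma adjusted p = 0.0522). Mrps14, a protein of the subunit's head, differed by 0.13 (adjusted p = 0.275) on its brighter probe set and by 0.42 (adjusted p = 0.0503) on the dimmer one, which missed the threshold narrowly with limma. Mrps17 (0.20, 95% interval 0.02 to 0.37, adjusted p = 0.138), Mrps25 (0.17, 95% interval −0.01 to 0.36, adjusted p = 0.177) and Mrps11 (0.06, 95% interval −0.11 to 0.24, adjusted p = 0.556) did not pass. The other S18 proteins, Mrps18b and Mrps18c, differed by 0.17 and 0.06 and did not pass, where Mrps18a rose. Mrps36, first listed as a small subunit protein and now known as a subunit of the 2-oxoglutarate dehydrogenase complex, read 1494 and 1443 on the shGFP arrays and 1429.9 and 1399 on the shTRPV4 arrays. Those readings did not overlap, but the normalized ones did (−0.02, 95% interval −0.24 to 0.19, adjusted p = 0.863).

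Several genes were read by more than 1 probe set, so the difference could be read more than once. Of 33 such genes, 22 had the same sign on all their probe sets, 18 of them positive and 4 negative, and 11 had both signs. In 7 of these 11 at least 1 probe set had an unadjusted p under 0.05. Mrpl38 had the widest span, with 0.37 on 1447961_s_at (from 516 ± 34.6 to 648 ± 13.1, SD, n = 2) and −0.48 on the dimmer 1430610_at (from 122 ± 0.76 to 77.5 ± 10.6). In both the groups were apart, in opposite directions. Mrpl51 differed by 0.36 on its brightest probe set and 0.37 on another, and by −0.44 on 1416878_at, which read 456 and 440.1 on the shGFP arrays and 344 and 284 on the shTRPV4 arrays. None of these 5 probe sets passed with limma (adjusted p from 0.0605 to 0.128).

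In 5 more genes the probe set that went against the brightest was dim. Mrpl15 had 6 of 7 probe sets below 0, and the seventh, 1451623_at, differed by 0.65 at readings of 11.0 to 39.0, close to the offset. Mrpl11 differed by 0.20 to 0.27 on 3 probe sets and by −0.36 on 1438080_at, which read no higher than 19.2. For Mrpl17 the values were 0.24 and, on a probe set that read 15.4 to 33.4, −0.38. Mrpl21's second probe set read at most 3.77, against a difference of 0.22 on the first. In Mrpl35 the dimmer probe set differed by 0.23 and the brighter by −0.21. Of the 127 probe sets, 49 have IDs that end in _x_at, _s_at or _a_at, and the first 2 kinds can read related transcripts.

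**Figure D3:**
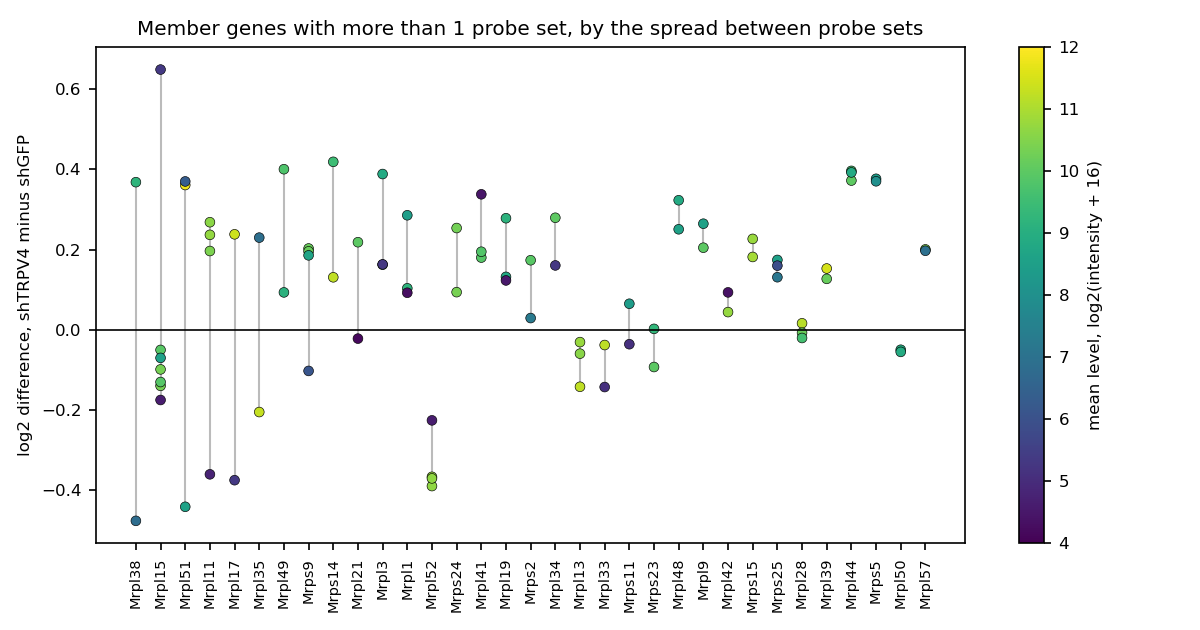
Log2 difference (vertical axis) of every probe set of the 33 mitoribosomal genes that have more than 1, with genes ordered by the span between their probe sets and the colour giving the mean level on the log2(intensity + 16) scale. Mrpl38, Mrpl15 and Mrpl51 span the most, and Mrpl44, Mrps5, Mrpl50 and Mrpl57 hardly differ between probe sets.

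Mitoribosomal proteins that do not carry the Mrp symbol were listed apart, and 4 of 7 had a single-gene probe set under the listed name, where Ict1 and Mrp63 are older names of Mrpl58 and Mrpl57, already among the 74. Gadd45gip1, also known as CRIF1, a large subunit protein, rose from 285 and 305 to 382 and 402 (0.45, SE 0.06, adjusted p = 0.0366 with limma). Dap3, a GTP-binding small subunit protein, read 2171 and 2284 on the shGFP arrays and 2725 and 2869.9 on the shTRPV4 arrays and missed the threshold (0.35, SE 0.06, adjusted p = 0.0524). Chchd1 (0.06) and Ptcd3 (−0.01), both of the small subunit, did not pass. The list had a median of 0.21, and with the values as deposited 0 of the 4 passed with limma.

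Of 16 genes measured for ribosome assembly and ribosomal RNA modification, 2 rose and 0 fell with limma, with a median of 0.12, and 8 had an unadjusted p under 0.05. Dhx30, a helicase of the mitochondrial RNA granule, went from 438 and 487 to 629 and 661 (0.51, SE 0.07, adjusted p = 0.0335), and Tfb1m, the dimethyltransferase of the small ribosomal RNA, from 478 and 536 to 677 and 664 (0.44, SE 0.07, adjusted p = 0.0464). With the values as deposited neither passed. The lowest, the pseudouridine synthase gene Rpusd4, did not pass (−0.43, SE 0.11, adjusted p = 0.0978). Of 10 translation factor genes 0 passed (4 at an unadjusted p under 0.05), from Oxa1l, the insertase that receives the new proteins (−0.23), to Mtfmt, which formylates the initiator tRNA (0.25), with a median of 0.14. Tufm, the elongation factor, differed by 0.07 (95% interval −0.13 to 0.28).

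The mitochondrial aminoacyl-tRNA synthetase genes had a larger median, 0.28 over 11 genes, of which 9 were positive and 0 passed with limma (9 at an unadjusted p under 0.05). They ran from Sars2 (−0.40, SE 0.07, adjusted p = 0.0529) to the glutamyl-tRNA amidotransferase subunit gene Qrsl1 (0.51, SE 0.11, adjusted p = 0.0759). Of 15 genes that maintain or transcribe mitochondrial DNA, 2 rose and 0 fell (limma, 7 at an unadjusted p under 0.05), with a median of 0.12. Lonp1, the matrix protease, went from 1147 and 1248 to 1886 and 1874 (0.67, SE 0.07, adjusted p = 0.0244), and the transcription elongation factor gene Tefm from 288 and 307 to 421 and 402 (0.51, SE 0.07, adjusted p = 0.0375). The lowest was Rrm2b, a ribonucleotide reductase subunit (−0.39, SE 0.09, adjusted p = 0.0723). For the polymerase gene Polrmt the difference was 0.19, and for Tfam, the packaging factor, 0.12, neither past the threshold. The proteins that this ribosome makes are encoded by 13 mitochondrial genes, none of which is analysed here.

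Genes of the cytosolic ribosome were set beside them. Of 79 listed, 36 had no single-gene probe set. Of the 43 measured, 2 fell, Rpl14 (−0.61, SE 0.07, adjusted p = 0.0268) and Rps6 (−0.49, SE 0.06, adjusted p = 0.0343), and 0 rose with limma (4 at an unadjusted p under 0.05 in either direction). These 2 probe sets read low for the list, whose median reading was 11900 or more on each array. Rpl14 read 471 and 498 on the shGFP arrays and 287 and 314 on the shTRPV4 arrays, and Rps6 1242 and 1332 against 881 and 899. The median difference was −0.04, with 11 of 43 positive, against 0.19 and 62 of 74 for the mitochondrial ribosome. The 2 lists are not alike in level. The median level percentile was 99.5 for the cytosolic genes, near the top of the array's range, and 84.7 for the mitoribosomal ones. How far such bright readings limit the differences was not tested. The direction of this list turned with the scaling: 25 were positive with the values as deposited (median 0.02) and 37 with median centring (0.11). The mitoribosomal median was the higher in each scaling. Summed deposited intensities of the cytosolic genes were 442062 and 460868 in shGFP and 448518 and 466979 in shTRPV4, with the groups overlapping, while those of the mitoribosomal genes did not overlap.

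**Figure D4:**
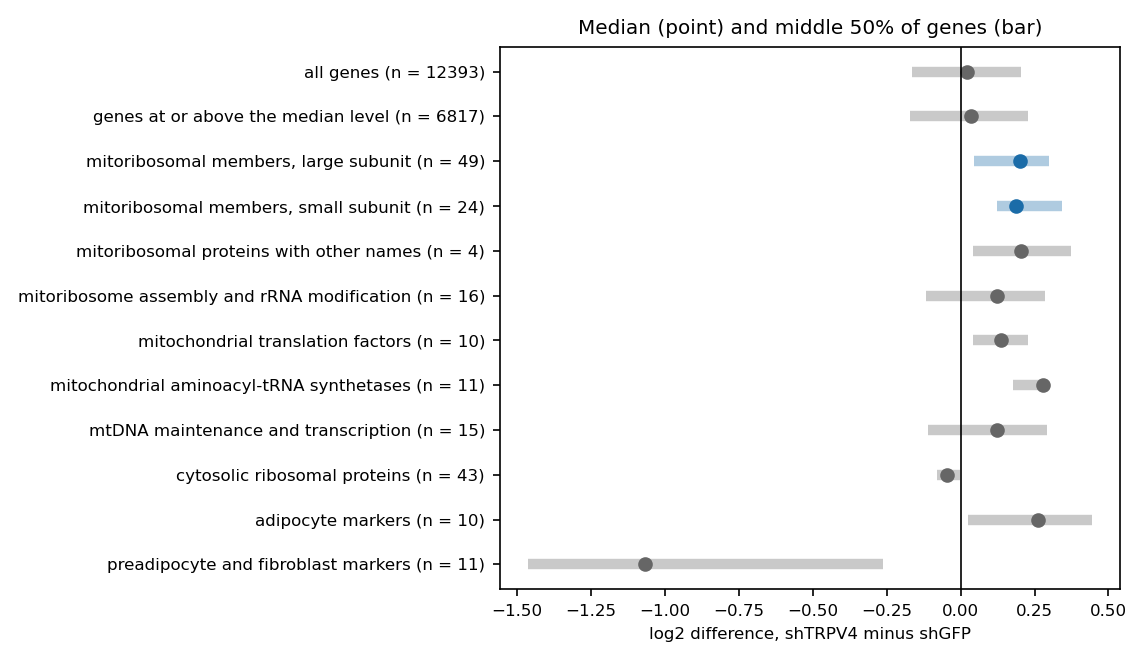
Median log2 difference (points, shTRPV4 minus shGFP) and the middle 50% of genes (bars) for all genes, genes at or above the median level, the mitoribosomal genes by subunit, the other gene lists and cell type markers. Both mitoribosomal bars lie to the right of 0, the cytosolic ribosomal bar lies just to the left of 0 (the sign of its median turns with the scaling) and the preadipocyte bar far to the left.

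Cell type markers moved with the same contrast. Of 11 preadipocyte and fibroblast markers, 7 passed with limma and all 7 fell (median −1.07). In this list 10 had a negative difference, as small as −0.02 for Col3a1, and 1 a positive one, Vim (0.11). The summed deposited intensity of the 11 was 60236 and 62124 in shGFP and 47848 and 48223 in shTRPV4. Of 10 adipocyte markers, 3 passed and all 3 rose (median 0.26), with sums of 59742 and 58601 against 64058 and 67059. The shift was not uniform, as 7 had a positive difference and 2 a negative one, Cidec (−0.14) and Lpl (−0.05). Fabp4, the brightest reading on each array, differed by 0 after quantile normalization. For 4 of the 10 the groups overlapped. Both defining adipocyte genes Adipoq and Fabp4 read high on all 4 arrays, at 11785 or more and 18099 or more. Of 10 macrophage markers, 1 rose and 3 fell, while 5 had a positive and 5 a negative difference (median −0.08). Their sums were 975 and 1078 against 684 and 630.3, with 9 of the 10 under the median level of the array. Those that fell were Cd14 (from 461 and 469.8 to 242 and 204), Lyz2 (from 235 and 271 to 63.8 and 42.8) and Csf1r (from 107 and 129 to 60.5 and 47.8), and Cd68 rose from 41.1 and 66.7 to 154 and 182. Without passing, Adgre1 (0.33) and Itgam (0.58) read higher on both shTRPV4 arrays, and Mrc1 (−0.26) and Tyrobp (−0.24) lower. Fcgr1, Ptprc and Tyrobp read at most 3.27, 11.2 and 21.6 on any array. The part of these shifts in the mitoribosomal differences was not tested.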

How the data were processed

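Per the labels' protocols, total RNA was labelled as biotinylated cRNA and hybridised to Affymetrix arrays, 1 per sample. The deposited values are linear intensities per probe set. How the authors summarized and scaled them is not stated in the labels or file headers. Gene names came from the platform annotation, and probe sets that name several genes or none were left out of gene counts. For each gene the probe set with the highest mean over the 4 arrays was used. Values were taken as log2(intensity + 16), quantile normalized and fitted over all 22626 probe sets by lmFit and eBayes of limma (version 3.58.1, run in R 4.3.3), with 2 residual and 1.8 prior degrees of freedom and Benjamini-Hochberg adjustment. The small number of arrays limits the precision. The fit was tested on simulated data with planted differences larger than any mitoribosomal one. That test does not show how well differences of the size found here are detected. Brighter and dimmer refer to probe set readings, which give no order of expression between genes.

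The members and lists were chosen with earlier results of these data known. Subunit, homology and role of each protein, and the other gene lists, were written from background knowledge. Genes named with values were all members past the threshold, the 8 most positive and the 8 most negative genes, the 3 brightest and the 3 dimmest Mrpl and Mrps genes, genes whose probe sets disagree, members placed outside the small subunit, and the called or most extreme genes of the other lists. Members named for their role were added after their values were seen. Alternatives were the values as deposited, median centring, offsets of 1 and 64, filters at the 25th and 50th percentile of level, averaging of probe sets, removal of probe sets whose IDs end in _x_at, _s_at or _a_at, an intensity trend, a replicate block and leaving out each array.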

Additional observations from a re-analysis of the deposited data

How the results depend on the processing

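The median log2 difference of the mitoribosomal genes stayed positive in all alternatives run, from 0.16 with the values as deposited to 0.25 with median centring, and from 0.18 to 0.20 with 1 array left out. The counts of calls moved with nearly every choice. Of 6 mitoribosomal probe sets and 6 genes past the threshold there were 3 and 3 with the values as deposited, 19 and 15 with median centring, 0 and 0 with an offset of 1, 34 and 25 with an offset of 64, 29 and 21 with the filter at percentile 25, 54 and 39 with the filter at percentile 50, 43 and 33 with the intensity trend, and 11 genes with probe sets averaged. Of all genes, 10.9% rose with the offset of 64, 11.4% with the trend and 25.1% with the filter at percentile 50, against 29.7%, 39.2% and 47.3% of the mitoribosomal genes. With the filter at percentile 25, 13.5% of all genes and 25.7% of the mitoribosomal genes rose, and with averaging 6.45% and 12.2%. Of all genes, 9.86% fell with the offset of 64 and 9.97% with the trend, against 4.05% and 5.41% of the mitoribosomal genes. The filters at percentiles 50 and 25 had 20.1% and 12.3% fallen against 5.41% and 2.7%, and averaging 6.49% against 2.7%. Without probe sets whose IDs end in _x_at, _s_at or _a_at, 4 mitoribosomal probe sets and 4 genes passed, of 78 and 59 left. Of the 59 genes 5.08% rose and 1.69% fell, against 4.41% and 5.36% of all genes. Mrps34 was not among the 59, and Mrpl45 missed the threshold (limma adjusted p = 0.0544). Counts for the other lists are to be read against these shares of all genes. For the other-named, assembly and mitochondrial DNA lists (1, 2 and 2 calls), the counts were 0, 0 and 1 with the values as deposited, 2, 4 and 3 with centring, 0, 0 and 0 with an offset of 1, 2, 6 and 6 with an offset of 64, 2, 6 and 5 with the filter at percentile 25, 2, 8 and 7 at percentile 50, 2, 4 and 6 with the trend, 1, 5 and 3 with averaging, and 1, 0 and 1 without the probe sets of those ID endings. Translation factors and synthetases (0 and 0 calls) had 1 and 4 with an offset of 64, 0 and 3 with the filter at percentile 25, 4 and 7 at percentile 50, 0 and 2 with averaging, and 1 and 3 with the trend. The 2 cytosolic calls became 0 with an offset of 1, and 3 both with the filter at percentile 50 and without the probe sets of those ID endings.

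With the replicate block limma called 0 genes in every list, but also 0 of all 12393 genes and 0 of all 22626 probe sets. In the block fit 33 mitoribosomal genes had an unadjusted p under 0.05, and the count over all genes was not taken. The block fit and those with an array left out have 1 residual degree of freedom, and a lone array is assumed to vary like the other group. The deviations of same-numbered arrays correlated at 0.119 over probe sets, and 2 pairs do not show whether the numbers pair the samples. Mrps36 (−0.02) turned to 0.0435 with median centring and ran from −0.0694 to 0.0208 with 1 array left out, and with probe sets averaged Mrpl17 turned to −0.0685, Mrpl35 to 0.0123 and Mrpl38 to −0.0542. The causes of these shifts were not tested. Depth has no meaning for arrays, and signal near the offset, as on the dim second probe sets, limits what they show.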
